A study of Mus musculus with 2 samples.

Results

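CD8 T cells that made both Ifng and Il2 transcripts at a high level with little Il17a are described here. They were 263 of 1727 kept cells in 2 single-cell libraries, 238 of 709 (33.6%) in the library labelled Nfatc1-deficient and 25 of 1018 (2.46%) in the library labelled wild type. Each cell's value for a gene is its unique molecular identifiers (UMIs, 1 per captured transcript) of that gene per 10000 UMIs of all genes. Members were chosen by Ifng of 10 or more, Il2 of 10 or more and Il17a under 10. Barcodes with fewer than 500 genes or over 10% mitochondrial UMIs had been left out before. Since Ifng, Il2 and Il17a selected the cells, their levels and joint shares are given as a description, and they are left out of every count of genes.

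The cells were CD8 T cells from mesenteric lymph nodes of C57/B6N mice, obtained with affinity beads, cultured with a Th17 polarising kit that turns them into interleukin-17 producing Tc17 cells, and stimulated with 100 ng/ml PMA plus 10 μg/ml ionomycin over 3 h. In the deficient-labelled library the mice carried Nfatc1 alleles flanked by loxP sites together with Cd4-Cre, a transgene that is active in developing T cells of both the CD4 and the CD8 lineage. The mice of the wild-type-labelled library were wild type, and polarisation, stimulation and tagging with multiplexing oligonucleotides were the same. There was 1 library per group and the sources used here do not give the number of mice behind each, so no difference has a replicate check and no test was run. The intervals given are 95% and cover counting error alone, and those of UMI sums and ratios also leave out the spread between cells.

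Interferon-gamma, encoded by Ifng, is the main macrophage-activating cytokine of type 1 CD8 T cells, and interleukin-2, encoded by Il2, is the T cell growth factor that is switched on by the T cell receptor through NFAT, AP-1 and NF-kB. Tc17 cells make interleukin-17A and interleukin-17F instead and are known for weak killing and for changing toward interferon-gamma production when their conditions change. Type 1 effector cells also release the chemokines Ccl3 and Ccl4, which attract myeloid and T cells, and Xcl1, which attracts dendritic cells carrying Xcr1.

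The promoters of the genes that define the class, and of 2 of its leading chemokine genes, are printed because the deleted factor belongs to a family that binds the letters GGAAA. They are the bases before the annotated start of the gene on GRCm38.p6, 5′ to 3′ on the strand of the gene. The start is the more upstream of those in RefSeq and GENCODE M21. GGAAA or its reverse complement TTTCC is in capitals. Ifng lies on the plus strand (chr10:118440796-118441045), and Il2 (chr3:37125960-37126204), Xcl1 (chr1:164935528-164935772) and Ccl3 (chr11:83649379-83649628) on the minus strand.
Ifng: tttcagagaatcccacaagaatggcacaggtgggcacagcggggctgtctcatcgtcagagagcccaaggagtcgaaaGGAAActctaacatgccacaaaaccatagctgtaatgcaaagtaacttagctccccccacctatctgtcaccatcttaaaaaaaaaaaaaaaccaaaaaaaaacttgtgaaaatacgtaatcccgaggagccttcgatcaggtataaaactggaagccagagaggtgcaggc
Il2: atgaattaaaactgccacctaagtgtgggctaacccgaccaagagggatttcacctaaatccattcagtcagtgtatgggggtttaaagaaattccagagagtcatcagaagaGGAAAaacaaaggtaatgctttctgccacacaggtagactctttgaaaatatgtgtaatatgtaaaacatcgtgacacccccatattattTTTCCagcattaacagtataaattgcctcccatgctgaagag
Xcl1: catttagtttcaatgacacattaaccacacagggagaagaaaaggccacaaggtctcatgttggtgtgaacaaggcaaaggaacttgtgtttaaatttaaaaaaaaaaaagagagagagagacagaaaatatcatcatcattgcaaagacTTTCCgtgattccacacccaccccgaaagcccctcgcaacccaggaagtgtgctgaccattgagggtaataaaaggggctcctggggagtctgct
Ccl3: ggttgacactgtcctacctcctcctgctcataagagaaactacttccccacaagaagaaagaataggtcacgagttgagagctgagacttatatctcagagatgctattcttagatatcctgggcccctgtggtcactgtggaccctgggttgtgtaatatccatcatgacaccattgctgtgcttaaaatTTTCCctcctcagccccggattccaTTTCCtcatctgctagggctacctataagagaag
The Ifng window held 1 match, the Il2 window 2, the Xcl1 window 1 and the Ccl3 window 2. Of all 32851 mouse promoters in the table, 18254 (55.6%) held at least 1 match and 7023 (21.4%) at least 2 in windows of 250 bases, the length used for Ifng and Ccl3. In windows of 245 bases, the length used for Il2 and Xcl1, 17998 (54.8%) and 6828 (20.8%) did, so a match is common. The letters are a description of these windows and no binding was measured. The sequence of Ccl4 was not used here.

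The 2 libraries were alike in depth and the class cells were cells of usual size. The deficient-labelled library held 709 kept cells with a median of 21436 UMIs, and the wild-type-labelled library 1018 with a median of 20906. No barcode was shared by the libraries. In the deficient-labelled library the class cells had a median of 24004 UMIs and 4037 genes, against 19767 UMIs and 3958 genes in the other cells. Those of the wild-type-labelled library had 20865 UMIs and 3760 genes, against 20911 UMIs and 3938 genes in the other cells. Nfatc1 itself, measured by 3′ tags that may lie outside the deleted exons and so may check nothing, stood at 136 CPM (UMIs of a gene per 1000000 UMIs of all genes) in the deficient-labelled library, against 39.8 CPM in the wild-type-labelled library. Since this runs against the genotype names, the libraries are called by their labels throughout.

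The class was much more frequent in the deficient-labelled than in the wild-type-labelled library, and no neighbouring class differed as much. Its share was 33.6% (Clopper-Pearson 30.1 to 37.2) of deficient-labelled cells, against 2.46% (1.60 to 3.60) of wild-type-labelled cells. Cells with Ifng but neither Il2 nor Il17a at the threshold made up 3.81% (2.52 to 5.49) in the deficient-labelled library, against 2.26% (1.44 to 3.37) in the wild-type-labelled library. Cells with Il2 alone made up 23.3%, against 15.4%. The order was the other way for cells with Il17a and Il2 without Ifng, which made up 13.4% (10.98 to 16.1) of deficient-labelled cells, against 36.4% (33.5 to 39.5) of wild-type-labelled cells. Cells with all 3 transcripts made up 4.94%, against 3.24%. These shares follow from the 3 genes that set the classes and no replicate stands behind them.

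**Figure D1:**
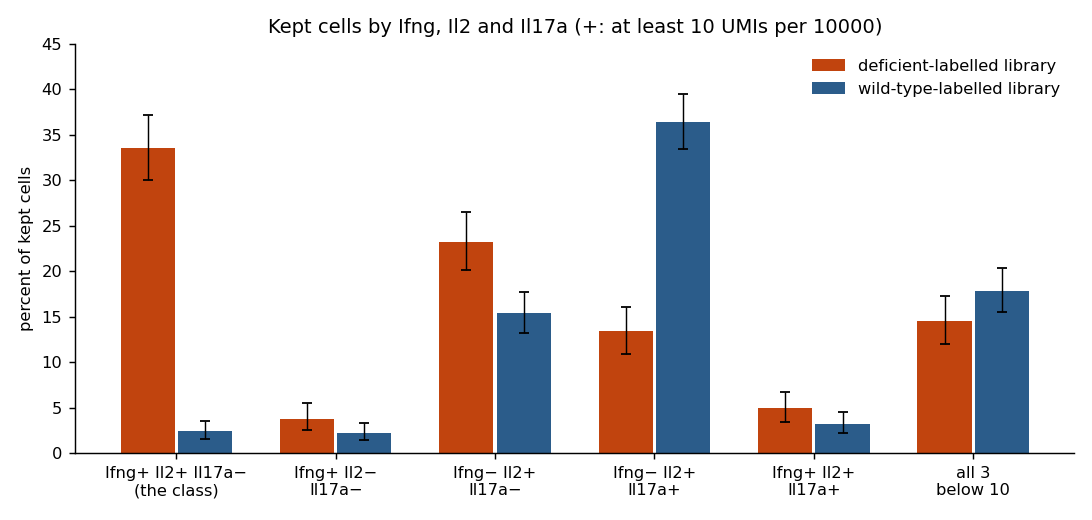
Share of kept cells (y axis, percent) in 6 classes set by Ifng, Il2 and Il17a at 10 UMIs per 10000, in the deficient-labelled (left bar of each pair) and wild-type-labelled library (right bar), with exact binomial intervals that cover counting error only. The class with Ifng and Il2 and without Il17a holds 33.6% of cells on the left and 2.46% on the right, whereas the class with Il17a and Il2 holds 13.4% and 36.4%.

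The joint shares of Ifng and Il2, a description of the genes that chose the cells, were as follows. Among deficient-labelled cells low in Il17a, 238 of 403 cells with Il2 also had Ifng (59.1%, 54.1 to 63.9), against 27 of 130 cells without Il2 (20.8%, 14.2 to 28.8). The same shares of wild-type-labelled cells were 25 of 182 (13.7%) for cells with Il2 and 23 of 205 (11.2%) for cells without it. Read the other way, Il2 was present in 238 of 265 deficient-labelled cells with Ifng (89.8%, 85.5 to 93.2), against 165 of 268 cells without Ifng (61.6%, 55.5 to 67.4). Il2 was present in 25 of 48 wild-type-labelled cells with Ifng (52.1%, 37.2 to 66.7), against 157 of 339 without it (46.3%, 40.9 to 51.8). Among deficient-labelled cells with Il2 and high Il17a, 26.9% had Ifng, against 8.17% of such cells in the wild-type-labelled library. The difference between libraries was not tested.

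Most deficient-labelled members stood well inside the thresholds, with lower quartiles of 57.4 for Ifng and 55.8 for Il2, whereas for wild-type-labelled members these were 13.7 and 74.2. Ifng in deficient-labelled members ran between 10.3 and 656 per 10000 with a median of 128, and in wild-type-labelled members between 10.1 and 873 with a median of 80.5. Il2 ran between 10.2 and 503 with a median of 119 in deficient-labelled members, and between 10.8 and 401 with a median of 121 in wild-type-labelled members. The ranges of both genes overlapped between the libraries. Just inside the threshold, 16 deficient-labelled and 8 wild-type-labelled members had an Ifng value between 10 and 20, and 17 and 2 had such an Il2 value. Just outside it, 18 deficient-labelled and 6 wild-type-labelled cells with Il2 had an Ifng value between 5 and 10, and 4 and 1 cells with Ifng had such an Il2 value. For Il17a, 2 deficient-labelled and 0 wild-type-labelled members lay between 5 and 10, and 5 and 1 cells with both cytokines lay between 10 and 20 and were left out.

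Il17a was low in the members without being absent. It was at 0 in 44 of the 238 deficient-labelled members and in 5 of the 25 wild-type-labelled members, and its highest value was 7.12 and 4.73 per 10000. Its median was 0.649 per 10000 in deficient-labelled and 0.778 in wild-type-labelled members. Summed over the class it stood at 80.6 CPM in deficient-labelled members, against 5661 CPM in the other deficient-labelled cells, and at 94.8 CPM in wild-type-labelled members, against 11370 CPM in the other wild-type-labelled cells. Whether these few counts come from the cell itself was not tested.

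**Figure D2:**
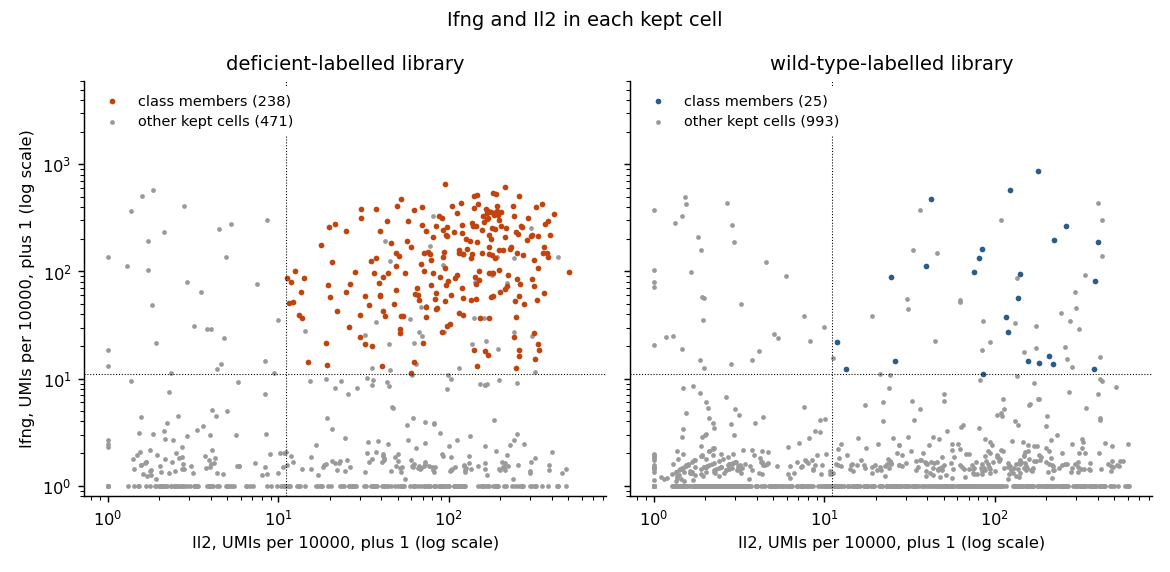
Il2 (x axis) and Ifng (y axis) per cell, as UMIs per 10000 plus 1 on log scales, in the deficient-labelled (left) and wild-type-labelled library (right). Coloured points are the 238 and 25 members, grey points the other cells, and dotted lines the threshold of 10. Grey points in the upper right corner are cells with Il17a at 10 or more.

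The members carried the transcripts of CD8 T cells, and few held 3 or more markers of another cell type. Single markers were more widespread. Ighm of the B cell list had a UMI in 40.3% of deficient-labelled members, against 23.1% of the other deficient-labelled cells. The wild-type-labelled shares were 12%, against 19.9%. Tnfrsf4 of the CD4 and regulatory T cell list had one in 42.9% of deficient-labelled members, against 53.1%, and in 56% of wild-type-labelled members, against 55.4%. At least 3 of the 10 genes of the CD8 T cell list were present in 238 of 238 and 25 of 25 members. The same held for 470 of 471 and 989 of 993 other cells. Beside Cd8a and Cd8b1 the list holds general T cell genes (Cd3e, Cd3d, Cd3g, Trac, Trbc1, Trbc2, Cd247 and Lck). This count therefore does not separate CD8 from CD4 T cells. At least 3 B cell markers were present in 2 of 238 members of the deficient-labelled library and 0 of 25 of the wild-type-labelled one, 3 markers of CD4 and regulatory T cells in 2 and 0, 3 NK cell markers in 0 and 1, and 3 myeloid, dendritic or unconventional T cell markers in none. Cd8b1, the beta chain of CD8, had a UMI in 233 of the 238 deficient-labelled members (97.9%, 403 CPM) and in all 25 wild-type-labelled members (378 CPM). Cd4 of helper T cells, Ncr1 of natural killer cells and Lyz2 of myeloid cells had no UMI in any member, which allows up to 1.26% of the deficient-labelled members and 12% of the wild-type-labelled members to hold such a UMI and sets no limit on cells that express the gene, since Cd8a itself had a UMI in 67.6% and 68% of members. Trdc of gamma-delta T cells had a UMI in 1 member of each library, and Foxp3 of regulatory T cells in 1 deficient-labelled member. The summed level of the NK cell list was 1.49 CPM in deficient-labelled members with 7 of 10 genes at 0, against 1.79 CPM in the other deficient-labelled cells. It was 9.98 CPM in wild-type-labelled members with 6 of 10 genes at 0, against 2.31 CPM in the other wild-type-labelled cells. B cell markers summed to 37.8 CPM in deficient-labelled members (3 of 10 genes at 0) and to 37.8 CPM in the other deficient-labelled cells. For wild-type-labelled cells the sums were 11.6 CPM in members (7 of 10 at 0), against 48.7 CPM in the other cells. The myeloid list (12 genes) summed to 1.79 CPM with 9 genes at 0 in deficient-labelled members, against 4.11 CPM, and to 3.33 CPM with 10 at 0 in wild-type-labelled members, against 3.69 CPM. Dendritic cell markers (12 genes) summed to 7.46 CPM with 5 at 0 in deficient-labelled members, against 10.0 CPM, and to 8.32 CPM with 9 at 0 in wild-type-labelled members, against 10.6 CPM. Markers of CD4 and regulatory T cells (6 genes, mostly Tnfrsf4 by level) summed to 139 CPM with 1 at 0 in deficient-labelled members, against 417 CPM, and to 462 CPM with 3 at 0 in wild-type-labelled members, against 331 CPM. Unconventional T cell markers (8 genes) summed to 2.69 CPM with 4 at 0 in deficient-labelled members, against 4.38 CPM, and to 4.99 CPM with 6 at 0 in wild-type-labelled members, against 0.964 CPM. The part of other cell types in the results was not tested. Of the 2 remaining markers named for the class, Ccl4 reached 10 per 10000 in 236 of 238 and 22 of 25 members, and Xcl1 in 97.5% and 80.0%.

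Against all other kept cells, the class combined more chemokine, granule and interleukin-10 transcripts with fewer type 17 transcripts. The comparison with cells with Ifng alone, given below, differed for Il10, Gzmb and the type 17 genes. Genes are said to differ here where the CPM of class and comparison cells lay at least 2-fold apart on log2(CPM + 1) in the same direction in both libraries, with at least 20 CPM in 1 of the groups. This is a rule of size, not a test. By it, 17 of 5208 genes (0.326%) were higher and 59 (1.13%) lower in the class. Taken alone, the deficient-labelled library had 32 of 5545 genes higher (0.577%) and 151 lower (2.72%), and the wild-type-labelled library 77 of 5465 higher (1.41%) and 261 lower (4.78%). The median log2 ratio over all genes was -0.19 for deficient-labelled cells and -0.13 for wild-type-labelled cells. With TMM scaling these medians lay at 0.05 and -0.05, and 28 genes were higher and 37 lower in both libraries. Ccl3, Ccl4 and Xcl1 together took 11.1% of all UMIs of deficient-labelled members, against 4.89% in the other deficient-labelled cells. They took 6.0% of those of wild-type-labelled members, against 1.21% in the other wild-type-labelled cells.

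**Figure D3:**
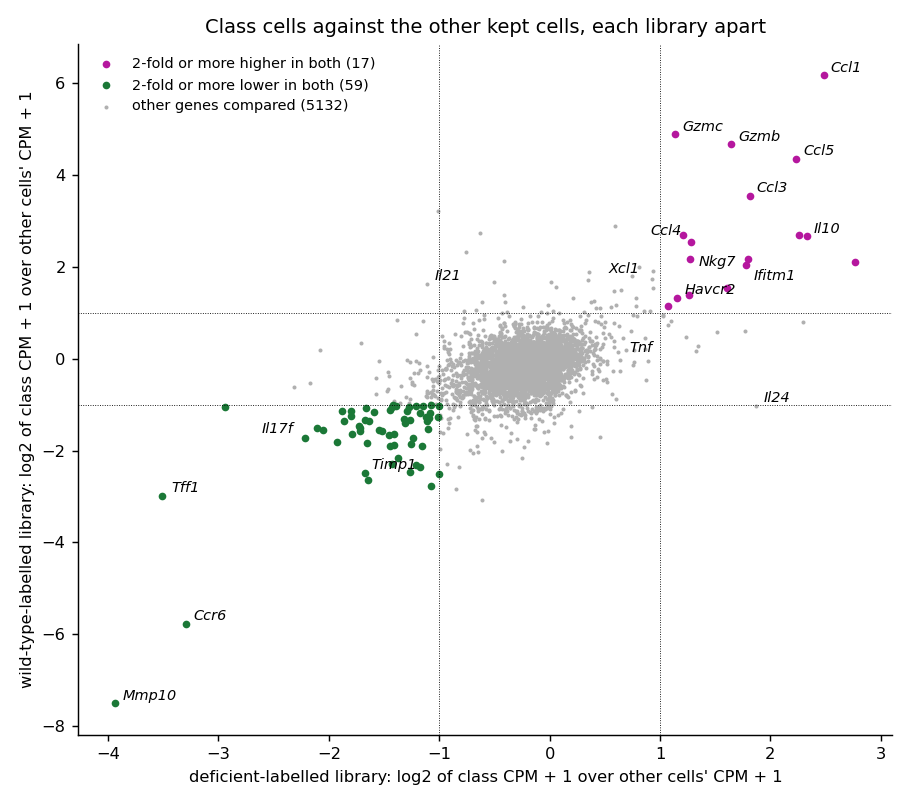
Log2 ratio of CPM + 1 of class members over all other kept cells in the deficient-labelled (x axis) and the wild-type-labelled library (y axis) for 5208 genes, each point a gene. The 17 genes at least 2-fold higher in both libraries are in magenta in the upper right, the 59 at least 2-fold lower in green in the lower left, and all others in grey. Ifng, Il2 and Il17a, which set the class, are not drawn.

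Among the chemokine genes, Ccl3 was higher in the class in both libraries and present in most members. Ccl3 (chromosome 11, 83647844 to 83649355, minus strand, mm10) stood at 13445 CPM in deficient-labelled members, against 3831 CPM in the other deficient-labelled cells, a fold of 3.51 (3.47 to 3.55). Among wild-type-labelled cells it stood at 7654 CPM in members, against 653 CPM in the other cells, a fold of 11.7 (11.3 to 12.1). It reached 10 per 10000 in 89.9% (85.4 to 93.4) of deficient-labelled members, against 41.8% (37.3 to 46.4) of the other cells, and in 68.0% (46.5 to 85.1) of wild-type-labelled members, against 14.7% (12.6 to 17.1). So most members of both libraries had Ccl3, although 1 cell gave 30.6% of the Ccl3 UMIs of the wild-type-labelled members. At 5000 UMIs per cell, where depth is equal, the shares were 89.8% against 43.1% and 68.0% against 15.9%.

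Ccl4 and Xcl1 reached 10 per 10000 in 99.2% and 97.5% of deficient-labelled members, against 74.7% and 72.2% of the other deficient-labelled cells, and in 88.0% and 80.0% of wild-type-labelled members, against 52.6% and 34.2%. Ccl4 (chromosome 11, 83662584 to 83664683, plus strand) stood at 56607 CPM in deficient-labelled members, against 23367 CPM in the other cells (2.42-fold), and at 33258 CPM in wild-type-labelled members, against 5759 CPM (5.77-fold). Its median per cell was 597 per 10000 in deficient-labelled members, against 137 in the other cells, and 278 in wild-type-labelled members, against 13.3. Xcl1 (chromosome 1, 164931644 to 164935527, minus strand) stood at 41374 CPM in deficient-labelled members, against 21722 CPM in the other cells. That ratio of 1.90 is below the 2-fold rule, which it would pass with TMM scaling (log2 1.16). Among wild-type-labelled cells Xcl1 stood at 19046 CPM in members, against 5707 CPM in the other cells, a ratio of 3.34.

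Ccl1 and Ccl5 were also higher but were carried by few members. Ccl1, the ligand of Ccr8, stood at 1201 CPM in deficient-labelled members, against 214 CPM in the other cells, with UMIs in 56 members. Among wild-type-labelled cells it stood at 1678 CPM in members, against 22.4 CPM, and 2 members held it, 1 of them with 79.3% of the UMIs. Ccl5, which attracts T cells and monocytes, stood at 211 CPM in deficient-labelled members, against 44.2 CPM, and at 494 CPM in wild-type-labelled members, against 23.4 CPM, where 1 of 4 cells gave 74.4%. Most of the wild-type-labelled UMIs of both genes thus came from 1 cell each, and without these cells the log2 ratios to the other wild-type-labelled cells were 3.98 for Ccl1 and 2.52 for Ccl5.

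Granule genes followed the chemokines. Gzmb (chromosome 14, 56258838 to 56262260, minus strand), the granzyme that starts death of target cells, stood at 1300 CPM in deficient-labelled members, against 415 CPM in the other cells, a fold of 3.13 (3.02 to 3.25). In the wild-type-labelled library it stood at 1909 CPM in members, against 74.4 CPM, a fold of 25.7 (23.8 to 27.7), with UMIs in 7 members and 59.2% of them in 1 cell. It reached 10 per 10000 in 50 of 238 (21%, 16.0 to 26.7) deficient-labelled members, against 5.52% of the other cells, and in 3 of 25 (12%, 2.55 to 31.2) wild-type-labelled members, against 0.906%. Nkg7, a granule membrane protein that takes part in the release of granules, was spread more widely. It stood at 789 CPM in deficient-labelled members, against 327 CPM in the other cells, and at 996 CPM in wild-type-labelled members, against 219 CPM. UMIs of Nkg7 were present in 213 of 238 and 24 of 25 members. Of the cytotoxic list, 7 of 16 genes were higher and 0 lower in the deficient-labelled library (median log2 ratio 0.75), and 8 of 19 higher and 0 lower in the wild-type-labelled library (0.80).

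Interleukin-10 and a few smaller genes completed the higher group. Il10 (chromosome 1, 131019845 to 131024974, plus strand), an anti-inflammatory cytokine, stood at 463 CPM in deficient-labelled members, against 91.4 CPM in the other cells (5.06-fold, 4.72 to 5.44), and at 537 CPM in wild-type-labelled members, against 84.2 CPM (6.38-fold, 5.66 to 7.18). It reached 10 per 10000 in 36 of 238 (15.1%) deficient-labelled members, against 2.55% of the other cells, and in 5 of 25 wild-type-labelled members, against 1.91%. Plek, encoding pleckstrin, a substrate of protein kinase C, stood at 294 CPM in deficient-labelled members, against 95.9 CPM, and at 288 CPM in wild-type-labelled members, against 99.1 CPM. Ifitm2 and Ifitm1, interferon-induced membrane proteins that hinder virus entry, were higher too: Ifitm2 by 7.70-fold in deficient-labelled members and 4.41-fold in wild-type-labelled members, Ifitm1 by 3.52-fold and 4.16-fold. Havcr2, encoding the inhibitory receptor Tim-3, stood at 113 CPM in deficient-labelled members, against 50.4 CPM, and at 49.9 CPM in wild-type-labelled members, against 19.4 CPM, where the log2 ratio turned to -1.08 at 5000 UMIs per cell. Leaving out for each gene the member with the most UMIs, 11 of the 17 genes stayed past the rule: Ccl1, Ccl3, Ccl4, Ccl5, Gzmb, Ifitm1, Ifitm2, Il10, Il1a, Nkg7 and Plek. Few wild-type-labelled members held Ccl1 or Ccl5, as given above, so their place in this list rests on little in that library.

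Tnf, encoding the inflammatory cytokine TNF, stood closer to the other cells. It was at 759 CPM in deficient-labelled members, against 480 CPM in the other cells (1.58-fold, 1.52 to 1.64), and at 442 CPM in wild-type-labelled members, against 322 CPM (1.37-fold, 1.21 to 1.55). It reached 10 per 10000 in 18.1% of deficient-labelled members, against 12.1%, and in 16.0% of wild-type-labelled members, against 5.54%. Csf2, encoding GM-CSF, had 18.2 CPM in deficient-labelled members, against 31.5 CPM in the other cells, with 57.4% of the members' UMIs in 1 cell. Among wild-type-labelled cells it had 348 CPM in 5 members, against 68.6 CPM. Over the cytokine and chemokine list, 7 of 21 genes were higher and 6 lower in the deficient-labelled library (median 0.08), and 9 of 18 higher and 4 lower in the wild-type-labelled library (1.04).

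The genes lower in the class included most of the type 17 genes measured. Il17f (chromosome 1, 20777146 to 20790617, minus strand), the partner cytokine of Il17a, was not used by the rule. It stood at 1201 CPM in deficient-labelled members, against 5571 CPM in the other cells, 4.64-fold lower (4.53 to 4.75), and at 2533 CPM in wild-type-labelled members, against 8397 CPM, 3.32-fold lower (3.15 to 3.49). It still reached 10 per 10000 in 35 of 238 deficient-labelled members (14.7%, 10.5 to 19.9) and in 10 of 25 wild-type-labelled members (40.0%, 21.1 to 61.3), against 52.4% and 74.1% of the other cells. Some cells counted here as low in Il17a thus had Il17f. Of the type 17 list, 9 of 14 genes were lower and 0 higher in the deficient-labelled library (median log2 ratio -1.62), and 10 of 16 lower and 1 higher in the wild-type-labelled library (-1.53).

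Receptors and tissue-acting genes of type 17 cells were among the lowest. Ccr6, the receptor that leads type 17 cells to mucosal sites, stood at 1.64 CPM in deficient-labelled members, against 24.9 CPM (15.2-fold lower, 8.35 to 30.7). It had 0 UMIs in wild-type-labelled members, against 53.8 CPM in the other cells, which is at least 10.8-fold lower with 3 counts over the class as the floor. Mmp10, a matrix metalloproteinase, stood at 0.597 CPM in deficient-labelled members, against 23.4 CPM (39.2-fold lower, 15.1 to 145), and had 0 UMIs in wild-type-labelled members, against 180 CPM, at least 36.1-fold lower. Tff1, a secreted trefoil peptide of mucosae, stood at 1.64 CPM in deficient-labelled members, against 29.1 CPM (17.7-fold lower), and at 1.66 CPM or 1 UMI in wild-type-labelled members, against 20.04 CPM (12.05-fold lower, 2.15 to 477). Il1r1, the receptor through which interleukin-1 sustains type 17 cells, was 3.73-fold lower in deficient-labelled and 3.43-fold lower in wild-type-labelled members. Rora, a transcription factor of type 17 differentiation, stood at 119 CPM in deficient-labelled members, against 328 CPM, and at 138 CPM in wild-type-labelled members, against 302 CPM.

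Lower genes outside the type 17 list had other roles. Timp1, an inhibitor of metalloproteinases, stood at 11.9 CPM in deficient-labelled members, against 40.4 CPM, and at 3.33 CPM in wild-type-labelled members, against 23.3 CPM. Tec, a kinase downstream of the T cell receptor, stood at 22.4 CPM in deficient-labelled members, against 72.6 CPM, and at 8.32 CPM in wild-type-labelled members, against 32.3 CPM. Gem, a small GTPase that dampens calcium channels, was at 28.1 CPM in deficient-labelled members, against 83.6 CPM, and at 26.6 CPM in wild-type-labelled members, against 79.5 CPM. Timp1 in wild-type-labelled members rests on few UMIs (7.0-fold lower, 1.93 to 57.9), and at a class threshold of 20 its log2 ratio there turned to 1.77. All 59 lower genes stayed past the rule without the top member of each gene, a step that tends to lower the class.

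Against all other kept cells, G2/M genes lay lower too, whereas S-phase genes did so among deficient-labelled cells. Against cells with Il2 alone, given below, the median G2/M ratio lay above 0 on the log2 scale in both libraries. Of the G2/M list, 5 of 10 genes were lower among deficient-labelled cells and 3 of 12 among wild-type-labelled cells, 0 were higher, and all of these 10 and 12 ratios lay below 0 on the log2 scale (medians -1.01 and -0.75). Of the S-phase list, 2 of 15 were lower among deficient-labelled cells (median -0.58) and 1 of 12 among wild-type-labelled cells (median -0.10, close to the -0.13 of all genes), and 0 were higher. Cdk1, the kinase that starts mitosis, stood at 12.7 CPM in deficient-labelled members, against 26.3 CPM, and at 8.32 CPM in wild-type-labelled members, against 35.4 CPM. For activation genes the shares of all genes lower, 2.72% and 4.78%, are the background. Of 18 NFAT pathway genes in the deficient-labelled library 0 were higher and 1 lower, Stim1, the calcium sensor of the endoplasmic reticulum (18.2 CPM in members, against 39.4 CPM). All 18 lay below 0 on the log2 scale (median -0.38, against -0.19 over all genes). Of 17 NFAT pathway genes in the wild-type-labelled library 0 were higher and 1 lower, Nfatc3 (19.96 CPM in members, against 44.2 CPM). There 11 lay below 0 (median -0.13, as over all genes). Of the Egr and Nr4a early response list, 1 gene was higher and 3 lower of 21 among deficient-labelled cells (median -0.02), and 2 higher and 1 lower of 22 among wild-type-labelled cells (median 0.30). For NF-kB genes the counts were 0 of 22 and 0 of 21 in either direction, and for the 30 oxidative phosphorylation genes 0 in both libraries. Nfatc1 stood at 118 CPM in deficient-labelled members, against 147 CPM in the other cells (0.801-fold, 0.735 to 0.872), and at 64.9 CPM in wild-type-labelled members, against 39.2 CPM (1.65-fold, 1.17 to 2.28). Tbx21, encoding the type 1 transcription factor T-bet, stood at 13.0 CPM in deficient-labelled members, against 14.3 CPM, and at 56.6 CPM in wild-type-labelled members, against 33.2 CPM.

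Measured as a part of the whole library, the deficient-labelled members held most of several effector transcripts. They held 37.4% of all UMIs of their library. They held 67.7% of its Ccl3 UMIs, 59.2% of Ccl4, 53.3% of Xcl1, 77.0% of Ccl1, 75.2% of Il10, 65.2% of Gzmb and 59.1% of Nkg7. For Tnf the part was 48.6%, and for Il17f 11.4%. The wild-type-labelled members held 2.46% of all UMIs, 22.8% of Ccl3, 12.7% of Ccl4, 7.76% of Xcl1, 13.9% of Il10, 39.3% of Gzmb and 10.3% of Nkg7. Their part of Tnf was 3.35% and of Il17f 0.755%. In both libraries the members thus held more of each named chemokine, Il10, Gzmb and Nkg7 than their part of all UMIs, and less of Il17f.

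The first of the 3 neighbouring classes was the cells with Ifng alone. Against these cells (27 deficient-labelled, 23 wild-type-labelled), 18 of 4951 genes (0.364%) were higher and 17 (0.343%) lower, and with TMM scaling 30 and 11. Taken alone, deficient-labelled members had 1.67% of genes higher and 2.09% lower, and wild-type-labelled members 5.07% and 8.21%. At 5000 UMIs per cell 92 genes were higher and 62 lower. Gzmb stood at 1300 CPM in deficient-labelled members, against 3320 CPM in cells with Ifng alone, and at 1909 CPM in wild-type-labelled members, against 2089 CPM. Without the top member its log2 ratio was -1.47 for deficient-labelled and -1.29 for wild-type-labelled members. Nkg7 stood at 789 CPM in deficient-labelled members, against 1022 CPM, and at 996 CPM in wild-type-labelled members, against 867 CPM. Of the cytotoxic list, 0 of 16 genes were higher and 3 lower among deficient-labelled cells (median log2 ratio 0.04), and 5 of 19 higher and 1 lower among wild-type-labelled cells (0.70). Of the type 17 list, 0 of 9 genes were higher and 1 lower among deficient-labelled cells (median 0.06). Among wild-type-labelled cells 3 of 14 were higher and 3 lower (-0.37). Il17f stood at 1201 CPM in deficient-labelled members, against 1418 CPM, and at 2533 CPM in wild-type-labelled members, against 108 CPM. Ccl3 stood at 13445 CPM in deficient-labelled members, against 10079 CPM, and at 7654 CPM in wild-type-labelled members, against 2004 CPM. Ccl4 stood at 56607 CPM in deficient-labelled members, against 50158 CPM, and at 33258 CPM in wild-type-labelled members, against 15296 CPM. Xcl1 stood at 41374 CPM in deficient-labelled members, against 36398 CPM, and at 19046 CPM in wild-type-labelled members, against 4452 CPM. Of the G2/M list, 2 of 7 genes were higher and 1 lower among deficient-labelled cells (median 0.36). Among wild-type-labelled cells 0 of 13 were higher and 5 lower (-0.79).

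Genes that went with Il2 among Ifng producers were few. Inhba, encoding activin A, stood at 80.0 CPM in deficient-labelled members, against 5.94 CPM in cells with Ifng alone (13.5-fold, 5.23 to 49.6), and at 46.6 CPM in wild-type-labelled members, against 0 UMIs (at least 7.36-fold). Il1r2, the decoy receptor of interleukin-1, stood at 193 CPM in deficient-labelled members, against 31.2 CPM (6.18-fold, 4.02 to 10.0), and at 283 CPM in wild-type-labelled members, against 10.5 CPM (26.8-fold, 11.3 to 83.6). Of the lower genes, Gadd45g, a stress protein that activates MAP kinases, stood at 16.1 CPM in deficient-labelled members, against 62.4 CPM, and at 15.0 CPM in wild-type-labelled members, against 441 CPM. Icos, a costimulatory receptor, was 2.81-fold lower in deficient-labelled and 2.78-fold lower in wild-type-labelled members. Il24, a cytokine of the interleukin-10 family, stood at 58.5 CPM in deficient-labelled members, against 154 CPM, and at 24.9 CPM in wild-type-labelled members, against 863 CPM. Without the top member of each gene 8 of the 18 higher genes stayed past the rule, Il1r2, Inhba, Ccl1 and Plek among them. As given above, few wild-type-labelled members held Ccl1, so its place here rests on little in that library.

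Against cells with Il2 alone (165 deficient-labelled, 157 wild-type-labelled), 36 of 5060 genes (0.711%) were higher and 20 (0.395%) lower, and with TMM scaling 43 and 9. Taken alone, deficient-labelled members had 0.966% of genes higher and 1.76% lower, and wild-type-labelled members 2.53% and 4.3%. Gzmb stood at 1300 CPM in deficient-labelled members, against 111 CPM in cells with Il2 alone (11.7-fold, 10.5 to 12.9), and at 1909 CPM in wild-type-labelled members, against 6.41 CPM (298-fold, 192 to 490). Il1a, encoding interleukin-1 alpha, stood at 24.8 CPM in deficient-labelled and 58.2 CPM in wild-type-labelled members, against 0 UMIs in cells with Il2 alone of either library (at least 29.2-fold and at least 60.6-fold). Il10 was 8.02-fold higher in deficient-labelled and 10.0-fold higher in wild-type-labelled members. Gzmb and Il10 were thus higher in the Il2 producers that also had Ifng. With all members counted, neither was past the rule in both libraries against cells with Ifng alone. Without the top member, the log2 ratio of Il10 to those cells was -0.26 for deficient-labelled and -1.95 for wild-type-labelled members. That of Gzmb was then -1.47 and -1.29, lower by the rule in both libraries. Against cells with Il2 alone Inhba was lower, 3.01-fold in deficient-labelled and 7.13-fold in wild-type-labelled members. Ckb, a creatine kinase, stood at 2.39 CPM in deficient-labelled members, against 20.1 CPM, and at 6.65 CPM in wild-type-labelled members, against 28.2 CPM. Inhba thus lay between cells with Il2 alone and cells with Ifng alone in the members of both libraries. Of the G2/M list, 1 of 7 genes was higher and 0 lower among deficient-labelled cells (median log2 ratio 0.34). Among wild-type-labelled cells 2 of 7 were higher and 0 lower (0.75).

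The last neighbouring class was the cells with Il17a and Il2. Against these (95 deficient-labelled, 371 wild-type-labelled), 28 of 5074 genes (0.552%) were higher and 52 (1.02%) lower, and with TMM scaling 37 and 44. Taken alone, deficient-labelled members had 0.898% of genes higher and 5.47% lower, and wild-type-labelled members 2.25% and 3.4%, with medians over all genes of -0.18 and -0.08. Gzmb was 44.0-fold higher in deficient-labelled (34.9 to 56.3) and 465-fold higher in wild-type-labelled members (334 to 667), and no cell with Il17a and Il2 reached 10 per 10000 for it in either library. Il10 was 31.3-fold higher in deficient-labelled and 52.3-fold higher in wild-type-labelled members, where it rests on 7 cells. Il17f was 9.16-fold lower in deficient-labelled and 4.85-fold lower in wild-type-labelled members. Mmp10 stood at 0.597 CPM in deficient-labelled members, against 81.7 CPM, and had 0 UMIs in wild-type-labelled members, against 196 CPM (at least 39.2-fold lower). Tnf was alike, at 1.10 times in deficient-labelled and 1.02 times in wild-type-labelled members. Of the cytotoxic list, 7 of 15 genes were higher among deficient-labelled cells and 11 of 19 among wild-type-labelled cells, and 0 lower (median log2 ratios 0.94 and 1.22). The lists of the cell cycle differed between libraries. In the deficient-labelled library 15 of 16 G2/M genes were lower in members (median -1.34), and in the wild-type-labelled library 1 of 9 (-0.05), a difference that was not tested.

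**Figure D4:**
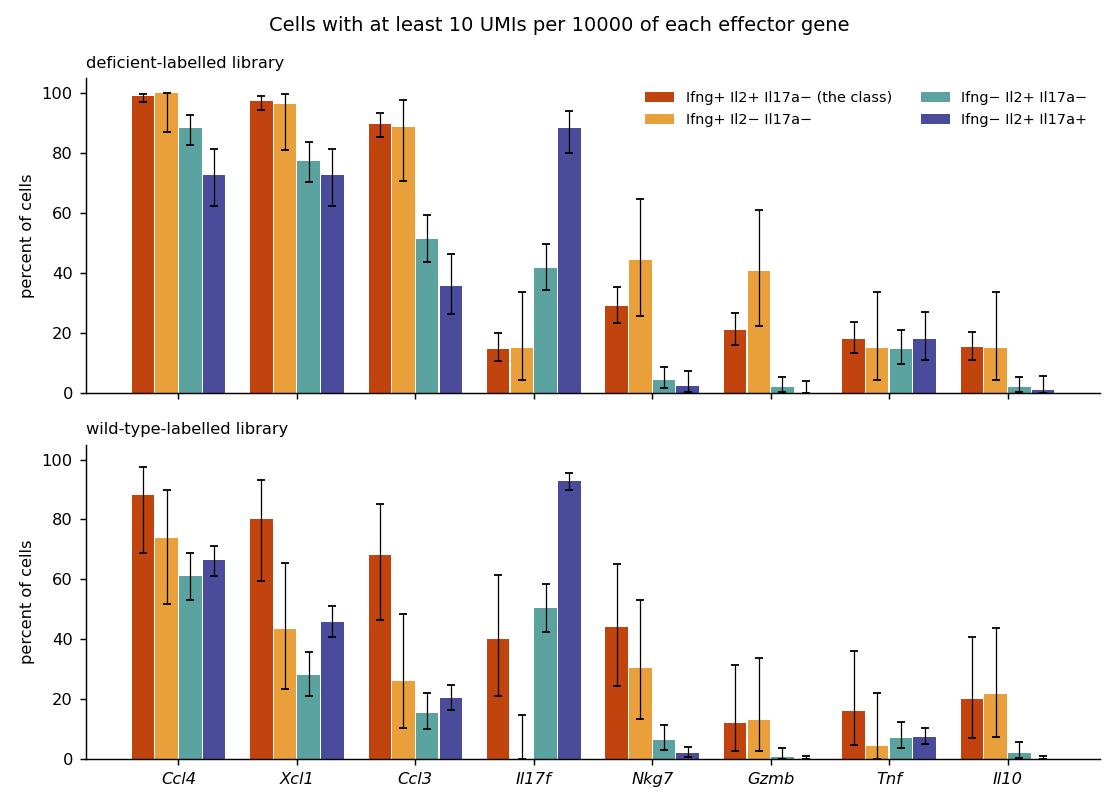
Share of cells (y axis, percent) with at least 10 UMIs per 10000 of 8 effector genes in the members and the 3 neighbouring classes, in the deficient-labelled (top) and the wild-type-labelled library (bottom), with exact binomial intervals. In the deficient-labelled library 21% of members and 40.7% of cells with Ifng alone reach it for Gzmb, against 1.82% of cells with Il2 alone, and Il17f reaches 88.4% in cells with Il17a and Il2, against 14.7% of members.

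The deficient-labelled members were not uniform. Of 7 effector genes that the rule did not use (Ccl3, Ccl4, Xcl1, Tnf, Gzmb, Il10 and Il17f), 225 of 238 deficient-labelled members (94.5%) and 19 of 25 wild-type-labelled members (76.0%) had 3 or more at 10 per 10000. So did 88.9% of deficient-labelled cells with Ifng alone, 67.3% with Il2 alone and 61.1% with Il17a and Il2. For wild-type-labelled cells these shares were 26.1%, 21.7% and 43.1%. In the deficient-labelled library 114 members (47.9%) had 3 and 80 (33.6%) had 4. Gzmb and Il10 divided the members as follows. Both were at 10 per 10000 in 11 deficient-labelled members (4.62%), Gzmb without Il10 in 39 (16.4%), Il10 without Gzmb in 25 (10.5%) and neither in 163 (68.5%). Thus 11 of the 36 members with Il10 had Gzmb, against 50 of all 238. The members with Gzmb and no Il10 had a median of 176 for Ifng and 68.6 for Il2, while those with Il10 and no Gzmb had 161 for Ifng and 177 for Il2. Those with neither had 95.3 for Ifng and 120.0 for Il2. Il17f was at 10 per 10000 in 5 of the 50 deficient-labelled members with Gzmb, and in 30 of the 188 without it.

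**Figure D5:**
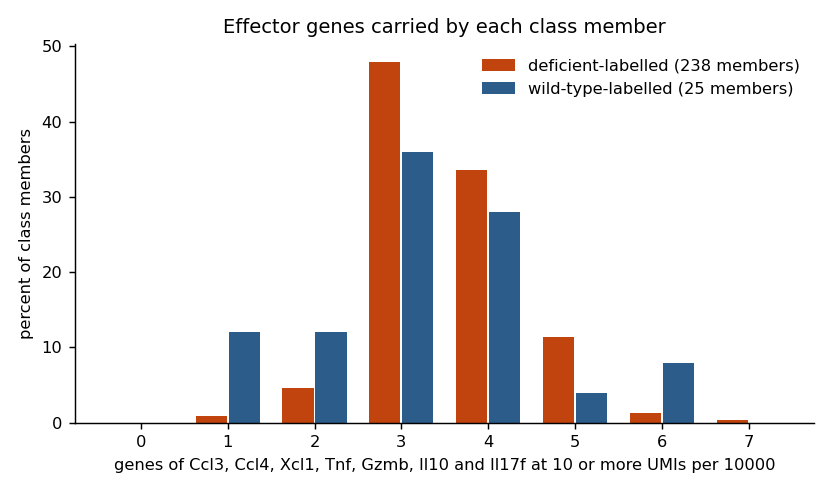
Share of members (y axis, percent) by the number of the 7 effector genes (Ccl3, Ccl4, Xcl1, Tnf, Gzmb, Il10 and Il17f) at 10 UMIs per 10000 or more (x axis), in the deficient-labelled (left bar) and wild-type-labelled library (right bar). Most deficient-labelled members have 3 (47.9%) or 4 (33.6%).

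Rank correlations describe how the effector genes went together among members. Across the 238 deficient-labelled members Spearman's rho of Ifng was 0.49 with Ccl3, 0.45 with Ccl4 and 0.32 with Nkg7. Across the 25 wild-type-labelled members the values were 0.40, 0.36 and 0.51. Il2 went with Tnf, at rho 0.41 in deficient-labelled and 0.55 in wild-type-labelled members, and lay opposite to Gzmb, at -0.12 and -0.40. These cells share a library, a culture and the total that divides each value, so the values describe the members and carry no p. Depth of the cell went little with either cytokine, with rho of 0.16 for Ifng and 0.00 for Il2 in deficient-labelled members, and -0.08 and 0.11 in wild-type-labelled members.

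The last comparison set deficient-labelled against wild-type-labelled members. Of 5278 genes, 204 (3.87%) were at least 2-fold higher and 188 (3.56%) lower, with a median log2 ratio of 0.04 over all genes. With 25 wild-type-labelled members, 1 cell can decide a gene. Without the top cell of each gene in each library the counts were 395 higher and 85 lower.

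Cd160 and Trpm6 were among the 204 genes higher in deficient-labelled members. Cd160, encoding a receptor of activated CD8 T and NK cells, stood at 473 CPM in deficient-labelled members, against 166 CPM in wild-type-labelled members (2.84-fold, 2.33 to 3.51), with UMIs in 214 of 238 and 18 of 25 cells. Trpm6, encoding a magnesium channel, stood at 217 CPM in deficient-labelled members, against 39.9 CPM in wild-type-labelled members, where 10 cells held it (5.44-fold, 3.64 to 8.53). Ubash3b, encoding a phosphatase that restrains T cell receptor signals, stood at 79.0 CPM, against 9.98 CPM in 3 wild-type-labelled cells (7.91-fold), and Bcl2l11, encoding the death-promoting protein Bim, at 50.5 CPM, against 4.99 CPM in 2 wild-type-labelled cells (10.1-fold, 3.43 to 49.3). Havcr2 was 2.27-fold higher (1.58 to 3.39), with UMIs in 134 and 9 cells. By the values given above, Havcr2 was also higher in the other deficient-labelled than in the other wild-type-labelled cells. Penk, encoding a precursor of enkephalins, had 253 UMIs in 13 deficient-labelled members (37.8 CPM) and 1 UMI in wild-type-labelled members (1.66 CPM), and Ccl9 stood at 89.7 CPM, against 8.32 CPM in 1 wild-type-labelled cell.

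Of the lower genes, some rest on many cells and others on 1. Ly6a, encoding the activation antigen Sca-1, stood at 136 CPM in deficient-labelled members, against 506 CPM in wild-type-labelled members, with UMIs in 162 and 21 cells. Egr1, an early gene of T cell receptor signalling, stood at 90.0 CPM, against 203 CPM (2.25-fold lower), with UMIs in 173 and 20 cells. Tbx21 stood at 13.0 CPM in deficient-labelled members, against 56.6 CPM in wild-type-labelled members (4.35-fold lower, 2.84 to 6.54), with UMIs in 50 and 13 cells. Csf2 stood at 18.2 CPM in deficient-labelled members, against 348 CPM in 5 wild-type-labelled members. These 4 genes stayed at least 2-fold lower without the top cell. Gzma and Plxdc1 had all their wild-type-labelled class UMIs in 1 cell, and Il21 had 93.9% in 1 cell. Of 15 ATF4 target genes, which serve amino acid supply, all lay below 0 and 3 passed the rule (median log2 ratio -0.67). Of 14 cholesterol synthesis genes 7 were lower and 0 higher (-0.88), and of 7 interferon-response genes 4 were lower and 0 higher (-1.09). Summed over each whole list, the other deficient-labelled cells also stood below the other wild-type-labelled cells. These sums were 1376 against 2284 CPM for the ATF4 list and 749 against 1313 CPM for the cholesterol list. For the interferon-response list they were 1617 against 1983 CPM.

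Ccl3, Ccl4, Xcl1 and Gzmb differed less between libraries among members than among the other cells. Ccl3 had a log2 ratio of deficient-labelled over wild-type-labelled cells of 0.81 among members and 2.55 among the other cells. The values were 0.77 and 2.02 for Ccl4, and 1.12 and 1.93 for Xcl1. For Gzmb the sign differed with all members counted, at -0.55 among members and 2.46 among the other cells. The wild-type-labelled members' Gzmb value rests on 7 cells. Without the top member of each library the Gzmb ratio among members was 0.49, the same sign as in the other cells. Ly6a was alike in both, at -1.89 among members and -1.88 among the other cells. Nfatc1 had a log2 ratio of 0.85 among members (118 CPM in deficient-labelled, against 64.9 CPM in wild-type-labelled, 1.82-fold, 1.32 to 2.57) and 1.88 among the other cells. Ifng and Il2, held above the threshold by the rule, had 0.13 and -0.06 among members. The other cells of the 2 libraries hold different parts of each class, and neither this nor the difference of ratios was tested.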

How the data were processed

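The authors deposited 1 matrix of raw UMI counts (genes by barcodes) for each library. Per the file headers these came from Cell Ranger 7.0.0, and per the submitters' processing notes the build was mm10. The sources used here give neither the gene annotation nor the treatment of intronic reads. Per the labels' protocols the libraries were made with the 10x Genomics 3′ kit. The 12 multiplexing tags were kept out of all totals. Kept cells were 709 of 754 barcodes of the deficient-labelled library and 1018 of 1149 of the wild-type-labelled one, with 17898193 and 24452538 UMIs. UMIs were summed per library and class, divided by the class total to give CPM, and compared on log2(CPM + 1), which understates the ratios of low genes; folds are ratios of CPM without the pseudocount. Intervals are Clopper-Pearson for shares and conditional binomial for ratios.

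The members, the gene lists and the comparisons were chosen with earlier results of these data known. Genes named are the 12 highest and 12 lowest past the rule of size against the other cells and between libraries, 6 and 6 against each neighbouring class, the 2 highest and 2 lowest per list, and a fixed set of effector, identity and activation genes; others were chosen after their values were seen. Scrublet called 6 doublets in the deficient-labelled library (3 in the class) and 5 in the wild-type-labelled one (0.491% of cells, 0 in the class), and these were kept. Gene coordinates come from GENCODE M21 (mm10), which held 99.8% of the identifiers. The scripts were tested on simulated data. Python 3.11.15, NumPy 2.4.6, SciPy 1.17.1, pandas 2.3.3, scanpy 1.11.5, R 4.3.3 and edgeR 4.0.16 (TMM scaling alone) were used.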

Additional observations from a re-analysis of the deposited data

Results flagged for a closer look

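Il24 lay on opposite sides in the 2 libraries. Class members over the other cells had a log2 ratio of 1.87 in the deficient-labelled library (58.5 CPM, 22 cells with a UMI, against 15.3 CPM) and -1.03 in the wild-type-labelled library (24.9 CPM, 3 cells, against 51.8 CPM). Il21, a cytokine of follicular and type 17 T cells, lay the other way, at -1.11 in the deficient-labelled library (8.81 CPM, against 20.2 CPM) and 1.63 in the wild-type-labelled library (110 CPM, against 34.7 CPM). In wild-type-labelled members 93.9% of its UMIs came from 1 cell, and the ratio was -2.18 without that cell. Neither difference between libraries was tested. Il24, Il21 and Lrrk2 were the 3 of 5208 genes at least 2-fold apart in opposite directions. Outside the gene counts, the multiplexing tags took 3.98% of the counts of deficient-labelled members (3.54% in the other cells) and 3.24% of those of wild-type-labelled members (2.96% in the other cells), and every kept cell of a library had the same most abundant tag.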

How the results depend on the processing

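No paired analysis was possible because each group has 1 library, so no replicate could be blocked or left out. The class share was 32.6% to 36.4% of deficient-labelled cells at a threshold of 5, after thinning to 5000 UMIs, with other barcode filters and without doublets, and 29.9% at a threshold of 20; in wild-type-labelled cells it lay between 1.67% and 3.14%. Counts of genes past the rule of size moved more. Against the other cells, higher genes numbered 28 with TMM scaling, 28 without a floor and 11 without each gene's top class cell (an alternative chosen after seeing the data that takes the cell from the class alone), and lower genes 37, 355 and 115, with 104 at a floor of 10 CPM and 19 at 50 CPM. Against Ifng alone, higher genes numbered 30 with TMM, 92 thinned, 33 and 9 at floors of 10 and 50, 268 without a floor and 8 without the top cell; lower genes numbered 10 with a pseudocount of 5, and 11, 62, 57, 6, 229 and 30 in the same order. Against Il2 alone, higher genes numbered 79 without a floor and 23 without the top cell; lower genes numbered 9 with TMM, 11 at threshold 5, 33 thinned, 38 and 7 at the floors, 162 without one and 50 without the top cell. Against Il17a and Il2, higher genes numbered 18 at the floor of 50, 58 without one and 15 without the top cell; lower genes 96 and 23 at the floors, 346 and 81. Between libraries, higher genes numbered 132 with a pseudocount of 5, 521 thinned, 378 and 62 at the floors, 1506 without one and 395 without the top cell; lower genes 308 at threshold 20, 627, 324, 95, 1273 and 85. Sign changes were counted for the fixed set and for the genes ranked against the other cells or between libraries. Of their values past the rule of size, 18 changed sign. Ratios short of the rule were not counted. Without the top cell, ratios against the other wild-type-labelled cells became -1.21 for Cd40lg, -1.09 for Gzma, -0.047 for Hist1h2bc, -0.61 for Ifitm3, -2.18 for Il21, -1.67 for Neo1, -3.42 for Plxdc1 and -0.51 for Ramp3, and ratios between libraries 0.42 for Ccl5, 0.34 for Cd40lg, 1.15 for Gzma, 1.54 for Ifitm3, 0.032 for Il21, 0.38 for Neo1 and 1.14 for Plxdc1. At threshold 20 Timp1 became 1.77 in the wild-type-labelled library; thinned, Havcr2 became -1.08 there and Tmem176b 0.32 between libraries. The cause was not tested.  The 25 wild-type-labelled members limit every value that rests on them.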
